A study of Mus musculus with 8 samples.

Results

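The 25 mouse genes described here encode parts of the TIM and TOM machineries, which carry proteins into mitochondria. They were chosen by symbol alone, as every gene whose symbol began with Timm or Tomm followed by a digit, pseudogenes left out. That gave 14 Timm and 11 Tomm symbols of 35976 symbols in the BAC count table, and the same 25 of 21828 symbols in the 3T3-L1 count table. One of them, Tomm6os, is not a subunit but a non-coding transcript that runs antisense to Tomm6. RNA-seq was carried out on 8 libraries of polyadenylated RNA from 2 wild-type mouse cell lines. BAC cells at day 4 of adipogenic differentiation were compared with BAC cells at day 0, and 3T3-L1 cells at day 6 with 3T3-L1 cells at day 0, with 2 libraries in each of the 4 groups. BAC cells are preadipocytes from the interscapular brown fat of newborn mice that were immortalised with the large T antigen of SV40, and 3T3-L1 cells are a fibroblast line of embryonic origin that forms white-type adipocytes. Day 0 was set after the cells had become confluent. An induction medium with IBMX, indomethacin, dexamethasone, insulin and the thyroid hormone T3 was then given until day 2, followed by medium with insulin and T3, and the labels give the same media for both lines. No source says whether the libraries within a group were grown as separate cultures, so a p-value here reflects the spread among these libraries alone, and that spread may be technical. Each line stands for 1 cell population, and line, count table and day of sampling differed together between BAC and 3T3-L1.

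Most mitochondrial proteins are made in the cytosol from nuclear genes and enter through the TOM complex of the outer membrane, in which receptors hand the precursor to a barrel-shaped pore. Precursors with a cleavable presequence pass on through the TIM23 complex and its matrix motor, whereas carrier proteins of the inner membrane are escorted by small TIM chaperones of the intermembrane space to the TIM22 complex. Brown adipocytes are rich in mitochondria. Their carrier proteins, the uncoupling protein Ucp1 among them, and the respiratory chain subunits made from nuclear genes depend on these routes. The question put to the data was how the transcripts of this machinery changed as each line differentiated, and whether the change differed between the lines.

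The depth ran from 9045849 to 10160636 counts a library. The chi-square per gene between libraries of 1 group lay between 1.87 and 5.17, above counting noise in each group and highest in BAC at day 4. Levels are given as CPM, counts scaled to a common library size after TMM normalisation, and changes as log2 change ± standard error (SE) with the adjusted p of edgeR, called at an adjusted p under 0.05. The adipocyte markers Fabp4, Adipoq, Plin1, Lpl, Pparg and Cfd, all 6 of them detected in every group, summed to between 17279 and 17972 CPM of raw library totals in day 4 BAC libraries, against 967 to 984 in day 0 BAC libraries. They summed to between 35148 and 36571 in day 6 libraries of 3T3-L1, against 913 to 1028 in its day 0 libraries. Of the 4 brown adipocyte markers Ucp1, Cidea, Ppargc1a and Cox7a1, Ucp1 and Cidea had no counts at day 0 of either line. All 4 were detected at the later day of both lines. They summed to between 423 and 523 CPM in day 4 BAC libraries, against 1.08 to 1.57 in day 0 BAC libraries. In 3T3-L1 they summed to between 61.2 and 61.5 CPM at day 6, against 22.5 in both day 0 libraries. Immune, endothelial, skeletal muscle and epithelial markers summed to at most 18.4 CPM in any library, that highest value being the endothelial list in BAC at day 0. The transcripts of mitochondrial DNA took 8.49% and 9.91% of counts in BAC at day 4, against 3.05% and 3.01% in BAC at day 0. In 3T3-L1 they took 4.83% and 4.88% at day 6, against 2.67% and 2.58% at day 0. These shares moved with the TIM and TOM genes, and their part in the results was not tested beyond leaving those transcripts out of the fits, which changed no call among the TIM and TOM genes tested with them in. In bulk samples, a smaller share of undifferentiated cells and a different amount of a transcript per cell cannot be told apart.

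TIM and TOM transcripts together were a larger part of the RNA after differentiation in both lines. They took 0.251% and 0.235% of counts in BAC at day 4, against 0.102% and 0.0956% in BAC at day 0. In 3T3-L1 they took 0.143% and 0.139% at day 6, against 0.0955% and 0.0924% at day 0. The later libraries lay above the day 0 libraries in both lines, with no overlap.

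**Figure D1:**
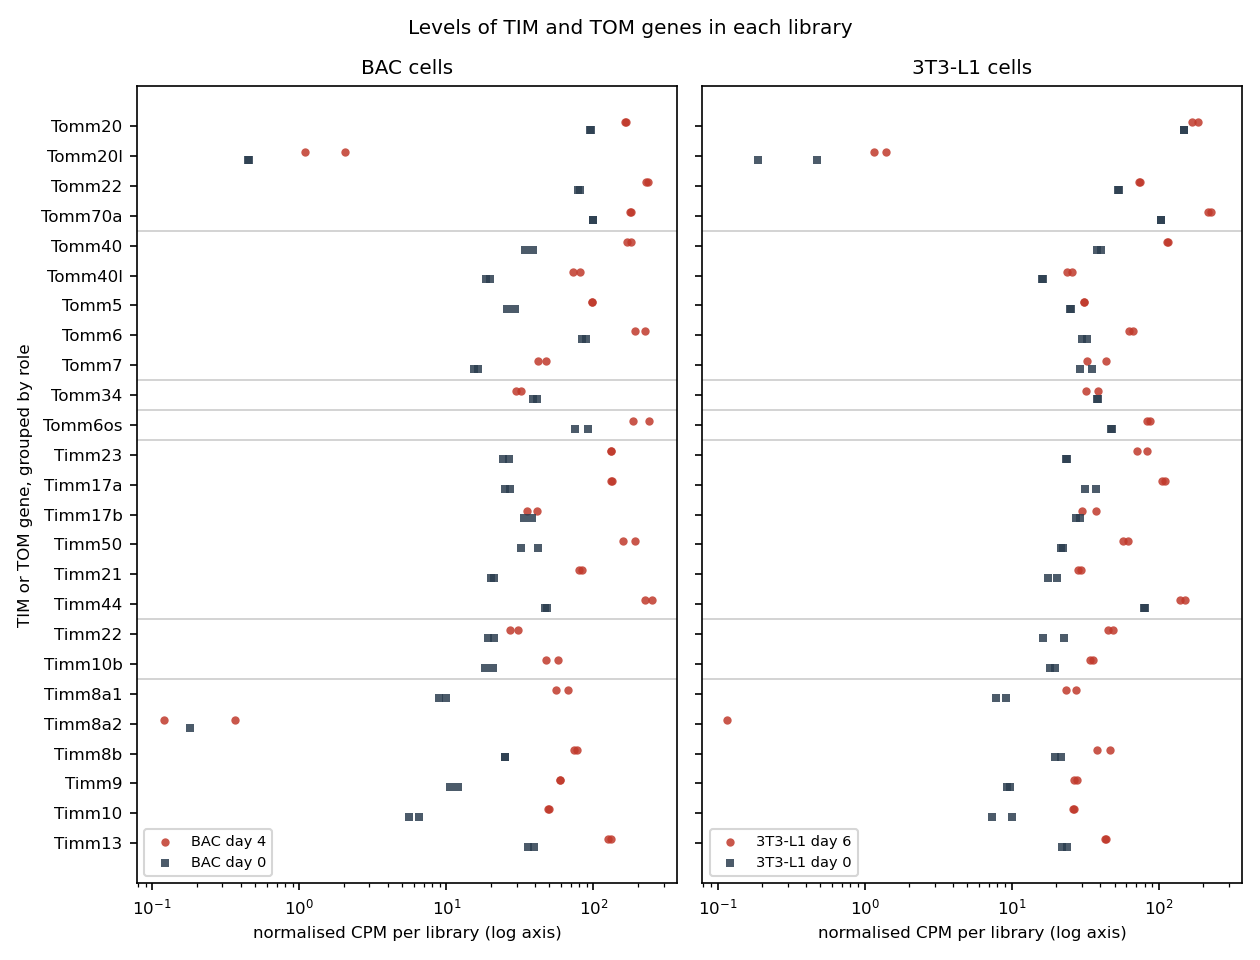
Normalised CPM of each TIM and TOM gene in every library on a log axis, with BAC on the left and 3T3-L1 on the right. Circles are the later day and squares day 0, 2 of each per gene, horizontal lines separate the roles, and libraries with no counts (Timm8a2 only) are not drawn. In BAC the day 4 libraries lie above the day 0 libraries for 22 genes, below them for Tomm34 and among them for Timm17b and Timm8a2. This pattern was not counted over all genes.

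In BAC cells, 21 of the 23 TIM and TOM genes that passed the filter on low counts were higher at day 4 than at day 0, 1 was lower and 1 did not pass the test. Of all 14028 genes tested, 39.1% were called higher and 39.4% lower. The median log2 change of the 23 genes was 1.78, against 0.01 over all genes tested. The scaling bears on these splits, since with library size alone the higher calls made up 38.7% of all calls, against 49.8% with TMM factors, and the median of all genes shifted by −0.26, while 20 of the genes were still called higher. The small TIM chaperones and the TIM23 complex had the largest changes, with medians of 2.39 over 5 genes and 2.28 over 6 genes, the TOM pore and its small subunits followed with 1.82 over 5 genes, and the TOM receptors and the TIM22 complex had 0.84 over 3 genes and 0.97 over 2 genes.

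The TIM23 complex is the inner membrane gate for presequence proteins, and 5 of its 6 genes measured here rose in BAC. Timm23, the channel-forming subunit (chromosome 14, 32180162 to 32201898), had 131 and 133 CPM in BAC at day 4, against 26.5 and 24.2 CPM in BAC at day 0. All of the day 4 libraries were higher, and the log2 change was 2.38 ± 0.09 (adjusted p = 3.48e-12). Timm44, the peripheral subunit that docks the Hsp70 motor at the channel exit (chromosome 8, 4259731 to 4275913), had 250 and 223 CPM at day 4 of BAC, against 48.2 and 46.7 CPM at day 0, a log2 change of 2.32 ± 0.09. Timm50, the receptor that takes precursors from TOM, had 191 and 160 CPM at day 4 of BAC, against 41.8 and 32.2 CPM at day 0, and rose by 2.24 ± 0.12. Its libraries spread more than those of Timm23 at both days, but did not overlap between days. Timm21, which links TIM23 to TOM and to the respiratory chain, had 79.1 and 83.8 CPM at day 4 of BAC, against 20.9 and 20.2 CPM at day 0, and rose by 1.99 ± 0.09.

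The TIM23 complex carries either of a pair of closely related channel subunits, Timm17a or Timm17b, and the values of both are given side by side. Timm17a (chromosome 1, 135295213 to 135313778) had 134 and 131 CPM in BAC at day 4, against 27.2 and 25.2 CPM in BAC at day 0, a log2 change of 2.34 ± 0.09 (adjusted p = 3.77e-12). Timm17b, which lies on the X chromosome (7899357 to 7908351), had 41.2 and 35.2 CPM at day 4 of BAC, against 38.3 and 33.7 CPM at day 0. Those libraries overlapped, and its log2 change of 0.09 ± 0.11 did not pass the test (adjusted p = 0.484). The sign of that small value was not stable, at −0.18 with library size alone as the scaling, −0.02 without day 0 replicate 2 and −0.04 without day 4 replicate 1, all short of the threshold.

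The small TIM chaperones of the intermembrane space held the largest rises in BAC. Timm10 (chromosome 2, 84826997 to 84830213), which forms a ring with Timm9 that shields carrier precursors, had 49.7 and 49.2 CPM in BAC at day 4, against 5.59 and 6.51 CPM in BAC at day 0. Its log2 change of 3.03 ± 0.13 (adjusted p = 1.31e-11) was the highest of the 23 genes, and its counts of 416 and 407 at day 4, against 62 and 72 at day 0, were low at the start. Timm9 (chromosome 12, 71123173 to 71136684) had 59.3 and 59.1 CPM at day 4 of BAC, against 10.5 and 12 CPM at day 0, and rose by 2.39 ± 0.11. Timm8a1, the mouse counterpart of the gene altered in human deafness-dystonia syndrome (X chromosome, 134537256 to 134541865), had 67.2 and 56.0 CPM at day 4 of BAC, against 8.92 and 9.95 CPM at day 0, and rose by 2.71 ± 0.13. Its ring partner Timm13 had 132 and 126 CPM at day 4 of BAC, against 39.5 and 36.0 CPM at day 0, and rose by 1.78 ± 0.09. Timm8b, the paralog of Timm8a1, had 76.8 and 73.1 CPM at day 4 of BAC, against 25.1 and 25.2 CPM at day 0, and rose by 1.58 ± 0.09. Both members of each ring thus rose, and by unequal amounts. Timm8a2, a further paralog, had 1 and 3 counts at day 4 of BAC, against 0 and 2 counts at day 0, and was too low to test in either line.

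The TIM22 complex inserts carrier proteins into the inner membrane, and its genes changed least among the TIM groups. Timm22, its channel (chromosome 11, 76406952 to 76416292), had 27.1 and 30.5 CPM in BAC at day 4, against 21.2 and 19.3 CPM in BAC at day 0, a log2 change of 0.51 ± 0.12 (adjusted p = 0.00104). This call was lost with library size alone as the scaling, at 0.25 (adjusted p = 0.0684). Timm10b, the small TIM that sits on TIM22, had 57.4 and 47.4 CPM at day 4 of BAC, against 20.7 and 18.4 CPM at day 0, and rose by 1.42 ± 0.12, with 23% of its annotated exon bases shared with other genes, Arfip2 among them. Timm29, a further TIM22 subunit, fell outside the choice by symbol because the BAC table holds it under its older symbol 1810026J23Rik. It had 631 and 702 counts at day 4 of BAC, against 565 and 594 counts at day 0, a log2 change of 0.62 ± 0.09 (adjusted p = 1.643e-05), and it was not measured under that symbol in 3T3-L1.

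In the TOM complex of BAC, the pore group had the higher median change and the receptors for incoming precursors the lower one. Tomm40, the barrel that forms the pore (chromosome 7, 19701313 to 19715438), had 179 and 170 CPM in BAC at day 4, against 38.8 and 34.5 CPM in BAC at day 0, a log2 change of 2.25 ± 0.09 (adjusted p = 5.26e-12). Its paralog Tomm40l had 80.9 and 72.1 CPM at day 4 of BAC, against 19.8 and 18.5 CPM at day 0, and rose by 2.00 ± 0.10. Of the exon bases of Tomm40l, 69.7% are shared with the neighbouring nuclear receptor gene Nr1i3, so its reads may be counted in part for the other gene. Among the small subunits that stabilise the complex, Tomm5 (chromosome 4, 45105208 to 45108114) had 97.2 and 97.4 CPM at day 4 of BAC, against 29.4 and 25.9 CPM at day 0, and rose by 1.82 ± 0.09. Tomm7 had 42.0 and 47.3 CPM at day 4 of BAC, against 15.4 and 16.4 CPM at day 0, and rose by 1.49 ± 0.11. Tomm6 had 225 and 192 CPM at day 4 of BAC, against 89.6 and 83.1 CPM at day 0, and rose by 1.27 ± 0.09. Tomm6 and Tomm6os overlap on opposite strands of chromosome 17 (47686646 to 47688386 for Tomm6, 47687610 to 47691083 for Tomm6os), and 93.3% of the exon bases of Tomm6 are shared with Tomm6os or other genes. Tomm6os had 240 and 185 CPM at day 4 of BAC, against 91.8 and 75.1 CPM at day 0, and rose by 1.35 ± 0.12. No source used here says if strand was read in the counting, and reads of Tomm6 and Tomm6os therefore cannot be told apart.

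The receptors covered a narrower range. Tomm22, the central receptor that also organises the pore, had 234 and 228 CPM in BAC at day 4, against 78.2 and 80.9 CPM in BAC at day 0, and rose by 1.54 ± 0.08. Tomm20, the presequence receptor, had 168 and 164 CPM at day 4 of BAC, against 94.4 and 96.8 CPM at day 0, and rose by 0.79 ± 0.07. Tomm70a, the receptor for carrier precursors and their cytosolic chaperones, had 176 and 180 CPM at day 4 of BAC, against 99.8 and 99.0 CPM at day 0, and rose by 0.84 ± 0.07. The day 4 libraries of each receptor were closer to each other than to any day 0 library. Tomm20l, a paralog of Tomm20, had 17 and 9 counts at day 4 of BAC, against 5 and 5 counts at day 0, and did not pass the filter on low counts in BAC.

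Tomm34 was the exception. It encodes a cytosolic co-chaperone that binds Hsp70 and Hsp90 and is not a stable subunit of the outer membrane complex (chromosome 2, 164053540 to 164071169). It had 32.2 and 29.7 CPM in BAC at day 4, against 41.5 and 38.7 CPM in BAC at day 0, with both day 4 libraries lower. Its log2 change was −0.37 ± 0.10 (adjusted p = 0.00336), and the call held under every alternative run on BAC, with values between −0.64 and −0.31.

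The promoter windows of Timm10, which had the largest rise in BAC, of the TIM23 subunits Timm23 and Timm44, and of the Timm17 pair are printed so that the letters near their start sites can be read. Windows run from 250 bases before to 50 bases after the start site and come from RefSeq on build GRCm38.p6, where 22 of the 25 genes had at least 1 window and 24 windows in all. Capitals mark matches on either strand to the core letters of a factor known for mitochondrial genes: CCGGAAG for ETS factors such as GABPA, AAGGTCA for the estrogen-related receptors (ERR), GCGCATGC for NRF1 and AAGATGGC for YY1. Timm10 (chr2:84826771-84827070, plus strand) has 3 ETS matches, at −16, 13 and 16 from the start base, and the last of them overlaps the one before it. Timm23 (chr14:32201842-32202141, minus strand) has ETS matches at −47 and 10 and an ERR match at 14 that overlaps the second of them. Timm44 (chr8:4275856-4276155, minus strand) has an ERR match at −5. Timm17a (chr1:135313688-135313987, minus strand) and Timm17b (chrX:7899086-7899385, plus strand) hold none of the 4 sets of letters in these windows.
Timm10: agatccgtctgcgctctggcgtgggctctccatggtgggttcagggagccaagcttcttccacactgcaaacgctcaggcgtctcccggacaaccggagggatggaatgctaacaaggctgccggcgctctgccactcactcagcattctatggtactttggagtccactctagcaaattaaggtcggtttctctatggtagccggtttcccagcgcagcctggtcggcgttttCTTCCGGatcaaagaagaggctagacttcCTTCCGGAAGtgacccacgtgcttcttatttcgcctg
Timm23: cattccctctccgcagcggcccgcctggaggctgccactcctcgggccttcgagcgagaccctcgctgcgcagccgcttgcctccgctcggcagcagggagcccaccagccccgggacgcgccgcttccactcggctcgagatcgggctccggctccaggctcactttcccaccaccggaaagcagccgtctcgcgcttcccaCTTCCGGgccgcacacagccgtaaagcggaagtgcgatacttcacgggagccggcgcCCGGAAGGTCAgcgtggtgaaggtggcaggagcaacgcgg
Timm44: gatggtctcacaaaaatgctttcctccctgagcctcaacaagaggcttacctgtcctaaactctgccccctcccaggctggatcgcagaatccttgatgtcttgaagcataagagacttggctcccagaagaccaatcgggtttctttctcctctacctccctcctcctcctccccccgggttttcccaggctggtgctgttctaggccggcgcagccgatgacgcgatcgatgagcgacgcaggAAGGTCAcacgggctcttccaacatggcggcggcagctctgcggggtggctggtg
Timm17a: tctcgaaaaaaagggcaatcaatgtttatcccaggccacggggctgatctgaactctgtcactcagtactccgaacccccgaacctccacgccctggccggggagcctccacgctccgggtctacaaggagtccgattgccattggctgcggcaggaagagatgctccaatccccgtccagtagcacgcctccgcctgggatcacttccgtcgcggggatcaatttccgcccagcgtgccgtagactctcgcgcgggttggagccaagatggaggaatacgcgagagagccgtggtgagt
Timm17b: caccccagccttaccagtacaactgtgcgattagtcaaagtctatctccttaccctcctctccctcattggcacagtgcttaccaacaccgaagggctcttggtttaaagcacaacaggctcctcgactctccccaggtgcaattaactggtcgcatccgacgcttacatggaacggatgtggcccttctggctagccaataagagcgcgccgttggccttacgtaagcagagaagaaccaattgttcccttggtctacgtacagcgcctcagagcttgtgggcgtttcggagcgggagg

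Across the family, the ETS letters were found in windows of 8 genes (Timm10, Timm10b, Timm23, Timm8a2, Timm8b, Tomm22, Tomm34 and Tomm70a), in 9 of the 24 windows of the TIM and TOM genes, against 8.86% of all 32851 windows. Overlapping windows of Tomm34 are among the 9 and share a match, and Timm8a2 was too low to test. Among those 8 genes stand both the highest log2 change in BAC, that of Timm10, and the only fall, that of Tomm34. The ERR letters were found in 3 of the 24 windows (those of Timm23, Timm44 and Timm8b), against 4.72% of all windows. The NRF1 letters were found in 1 window (Timm13), against 2.71%, and the YY1 letters in 1 window (Timm50), against 2.75%. None of these shares was tested. A match describes the letters only, and no binding was measured.

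In 3T3-L1 cells, 22 of the 24 TIM and TOM genes tested were higher at day 6 than at day 0, none was called lower, and Tomm34 and Tomm7 did not pass the test. The count of lower genes was also 0 at an unadjusted p under 0.05 in edgeR and 0 with DESeq2. Of all 11902 genes tested, 39.8% were called higher and 39.6% lower. The median log2 change of the 24 genes was 0.98, against 0.00 over all genes tested. With library size alone the higher calls made up 35.2% of all calls, against 50.1% with TMM factors, and the median of all genes shifted by −0.29. With upper-quartile factors the share of higher calls was 41.8% and the shift −0.16. By role, the median was 1.52 for the small TIM chaperones over 5 genes, 1.15 for TIM23 over 6 genes, 1.08 for TIM22 over 2 genes, 0.78 for the TOM receptors over 4 genes and 0.62 for the TOM pore and small subunits over 5 genes. The order of these last groups rests on Tomm20l, without which the receptor median over the 3 genes tested in both lines was 0.47. In 22 genes both day 6 libraries lay above both day 0 libraries, and the libraries of Tomm7, Tomm34 and Timm8a2 overlapped. This pattern was not counted over all genes, so the 22 cannot be set against a background share.

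Timm23 again had one of the larger rises, with 83.3 and 70.5 CPM in 3T3-L1 at day 6, against 23.7 and 23.4 CPM in 3T3-L1 at day 0, a log2 change of 1.71 ± 0.09 (adjusted p = 3.79e-13). Timm17a had 106 and 111 CPM at day 6 of 3T3-L1, against 37.4 and 31.5 CPM at day 0, and rose by 1.65 ± 0.08. Its paralog Timm17b had 37.3 and 30.0 CPM at day 6 of 3T3-L1, against 29.1 and 27.3 CPM at day 0. The log2 change of Timm17b, 0.26 ± 0.10 (adjusted p = 0.0279), was called but fragile, since it lost the call with DESeq2 (adjusted p = 0.13), with no filter on low counts, with upper-quartile factors, without day 0 replicate 3 and without day 6 replicate 1, and was −0.03 with library size alone and 0.41 without day 6 replicate 2. Timm50 had 62.2 and 56.7 CPM at day 6 of 3T3-L1, against 22.4 and 21.7 CPM at day 0, and rose by 1.43 ± 0.08. Timm44 had 151 and 139 CPM at day 6 of 3T3-L1, against 80.4 and 79.0 CPM at day 0, and rose by 0.87 ± 0.06. Timm21 had 29.5 and 28.0 CPM at day 6 of 3T3-L1, against 20.4 and 17.6 CPM at day 0, and rose by 0.60 ± 0.11. The log2 changes of the channel subunits Timm23 and Timm17a thus stood above those of the tether Timm21 and the motor anchor Timm44 in this line. That was not tested between genes.

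Among the small TIM chaperones, Timm10 had 26.3 and 26.3 CPM in 3T3-L1 at day 6, against 10.0 and 7.30 CPM in 3T3-L1 at day 0, and rose by 1.60 ± 0.14. Timm9 had 27.9 and 26.5 CPM at day 6 of 3T3-L1, against 9.66 and 9.29 CPM at day 0, and rose by 1.52 ± 0.12, close to its ring partner. Timm8a1 had 27.3 and 23.3 CPM at day 6 of 3T3-L1, against 7.76 and 9.10 CPM at day 0, and rose by 1.58 ± 0.13. Timm13 and Timm8b, the other chaperones tested, rose by 0.93 ± 0.09 and 1.03 ± 0.10. Timm22 had 45.4 and 48.6 CPM at day 6 of 3T3-L1, against 22.5 and 16.3 CPM at day 0, and rose by 1.28 ± 0.11. Timm10b rose by 0.87 ± 0.10.

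In the TOM complex of 3T3-L1, Tomm40 had 113 and 115 CPM at day 6, against 38.2 and 40.2 CPM at day 0, a log2 change of 1.54 ± 0.07 (adjusted p = 1.36e-14). Tomm70a had 215 and 226 CPM at day 6 of 3T3-L1, against 104 and 104 CPM at day 0, and rose by 1.09 ± 0.05. Tomm22 had 74.7 and 73.0 CPM at day 6 of 3T3-L1, against 53.9 and 52.4 CPM at day 0, and rose by 0.47 ± 0.07. Tomm40 and the carrier receptor therefore had the highest changes among the TOM genes other than the sparsely counted Tomm20l. Tomm5, Tomm20 and Tomm7 had the lowest among those that rose or narrowly missed the test. Tomm5 had 31.0 and 31.0 CPM at day 6 of 3T3-L1, against 24.9 and 25.4 CPM at day 0, a log2 change of 0.30 ± 0.09. Tomm20 had 183 and 167 CPM at day 6 of 3T3-L1, against 147 and 148 CPM at day 0, a log2 change of 0.25 ± 0.06. Tomm7 had 43.4 and 32.7 CPM at day 6 of 3T3-L1, against 34.9 and 29.3 CPM at day 0, and its log2 change of 0.25 ± 0.11 did not pass (adjusted p = 0.0536). Changes of this size turned on the scaling. With upper-quartile factors Tomm5 was at 0.14 and Tomm20 at 0.09, neither of them called, and with library size alone Tomm5 was at 0.01, Tomm20 at −0.04 and Tomm7 at −0.04. DESeq2 did not call Tomm5 either (adjusted p = 0.0686), and Tomm7 ranged from 0.03 without day 6 replicate 1 (adjusted p = 0.866) to 0.44 without day 6 replicate 2, with a call only without day 0 replicate 2 (0.38, adjusted p = 0.0206). With library size alone Tomm22 was at 0.18, Timm21 at 0.31, Tomm40l at 0.33, Timm44 at 0.57 and Tomm6os at 0.55, all still called higher.

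Tomm6, Tomm6os and Tomm40l, whose exons overlap other genes, rose by 1.03 ± 0.08, 0.84 ± 0.07 and 0.62 ± 0.11 in 3T3-L1. Tomm34 had 31.7 and 38.5 CPM at day 6 of 3T3-L1, against 38.8 and 37.8 CPM at day 0, a log2 change of −0.13 ± 0.09 that did not pass the test (adjusted p = 0.211). It was called lower with upper-quartile factors (−0.29), with library size alone (−0.42) and without day 6 replicate 2 (−0.27, adjusted p = 0.0494), and was at 0.01 without day 6 replicate 1. The largest log2 change of the 24 genes, that of Tomm20l at 1.90 ± 0.54 (adjusted p = 0.00336), rested on 12 and 10 counts at day 6 of 3T3-L1, against 5 and 2 counts at day 0. That call was lost with DESeq2 (adjusted p = 0.0616), without day 0 replicate 3 (adjusted p = 0.0591) and without day 6 replicate 1 (adjusted p = 0.0558). Timm8a2 had 1 and 0 counts at day 6 of 3T3-L1, against 0 and 0 counts at day 0.

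**Figure D2:**
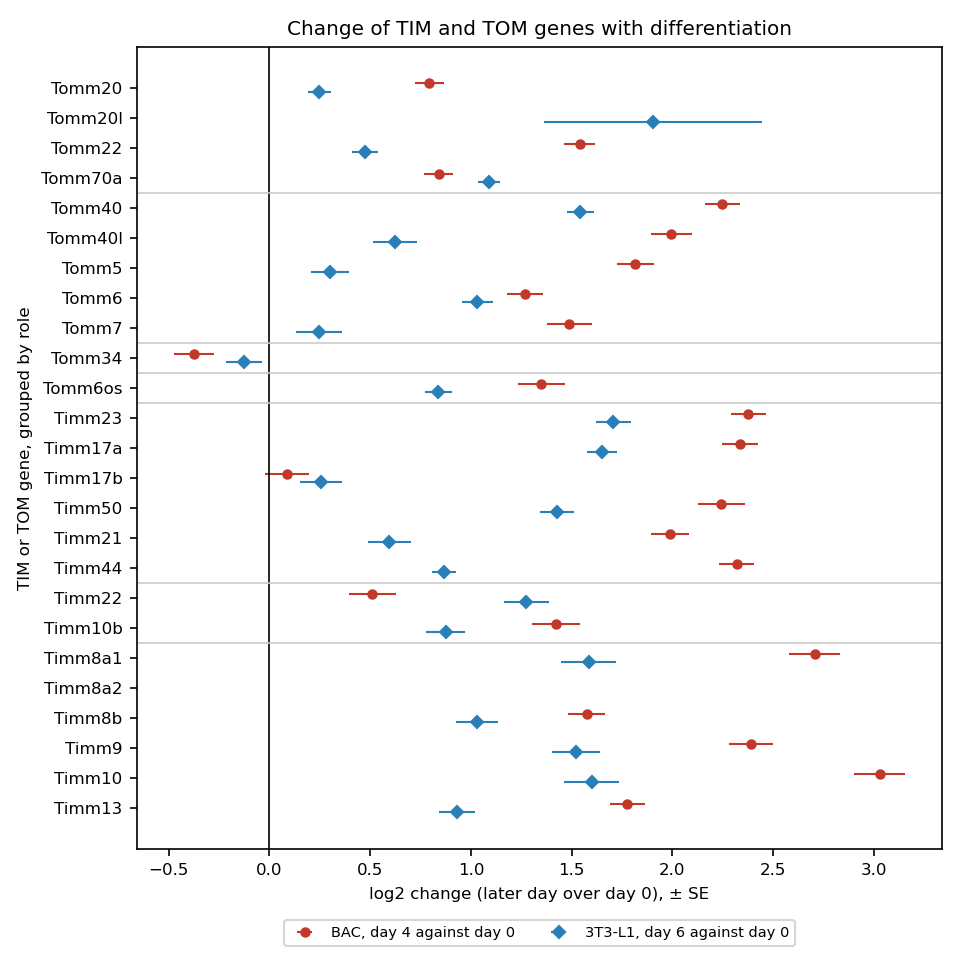
Log2 change ± SE from edgeR of each TIM and TOM gene tested, with circles for BAC (day 4 against day 0) and diamonds for 3T3-L1 (day 6 against day 0), 2 libraries per group. Horizontal lines separate the roles. The BAC value lies to the right for most genes, while Timm22, Tomm70a, Timm17b and Tomm34 have the higher value in 3T3-L1, by a difference past the test for Timm22 and Tomm70a only, and Timm8a2 was not tested.

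Whether the change differed between the lines was tested directly, as the log2 change of BAC minus that of 3T3-L1 in a single fit of all 8 libraries. Of 24 TIM and TOM genes, 18 had a positive difference past the test, with a larger rise in BAC or, for Tomm7, a rise called in BAC alone, and 2 had a negative one. Of all 12863 genes tested, 25.3% were called positive and 33.7% negative. The median difference of the 24 genes was 0.67, against −0.11 over all genes tested. In all, 17 genes were higher at the later day in both lines with a larger rise in BAC. The same joint count was not made over all genes tested. The later day was day 4 in BAC and day 6 in 3T3-L1, so a difference between lines and a difference between days cannot be told apart.

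The largest differences were those of Tomm5 (1.49 ± 0.13, adjusted p = 3.61e-10), Timm44 (1.43 ± 0.10, adjusted p = 1.61e-11), Timm10 (1.4 ± 0.21), Timm21 (1.36 ± 0.14) and Tomm40l (1.35 ± 0.15). Tomm7 followed at 1.22 ± 0.17, Timm8a1 at 1.09 ± 0.20 and Tomm22 at 1.04 ± 0.10. These genes came from the pore and its small subunits, the receptors, the motor anchor and tether of TIM23 and the small chaperones alike. The core channel subunits had smaller differences, with 0.68 ± 0.11 for Tomm40, 0.66 ± 0.12 for Timm17a and 0.64 ± 0.13 for Timm23. Timm9, Timm13 and Timm50 lay between 0.79 and 0.84, and Timm10b, Timm8b, Tomm20 and Tomm6os between 0.48 and 0.52. The call of Tomm6os was lost with no filter on low counts (adjusted p = 0.0848), and its value was 0.28 without BAC day 4 replicate 1 and 0.78 without BAC day 0 replicate 1, both still called.

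Timm22 ran the other way. Its difference was −0.79 ± 0.17 (adjusted p = 0.000357), with a log2 change of 0.51 in BAC and 1.28 in 3T3-L1, and the call held under every alternative, between −1.05 and −0.58. Tomm70a had a difference of −0.28 ± 0.09 (adjusted p = 0.011). That call was lost with DESeq2 (adjusted p = 0.12), with upper-quartile factors (adjusted p = 0.137), without BAC day 0 replicate 1 (adjusted p = 0.322), without BAC day 0 replicate 2 (adjusted p = 0.279) and without 3T3-L1 day 6 replicate 2 (adjusted p = 0.0588). Timm22 and Tomm70a both act in the carrier pathway, as its channel and its outer membrane receptor. The chaperones of that pathway, Timm9 and Timm10, had positive differences, and so did Timm10b, which sits on TIM22 (0.52 ± 0.16, adjusted p = 0.00642).

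The 4 genes without a call were Tomm6 at 0.21 ± 0.12 (adjusted p = 0.139), Tomm34 at −0.28 ± 0.14 (adjusted p = 0.0951), Timm17b at −0.20 ± 0.16 (adjusted p = 0.285) and Tomm20l at −0.17 ± 0.82 (adjusted p = 0.885). Tomm6 was called with upper-quartile factors (0.33), without BAC day 0 replicate 1 (0.41) and without BAC day 4 replicate 2 (0.32), and Tomm34 without 3T3-L1 day 6 replicate 1 (−0.41, adjusted p = 0.0259). Missing the threshold does not show that these genes changed alike in both lines.

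**Figure D3:**
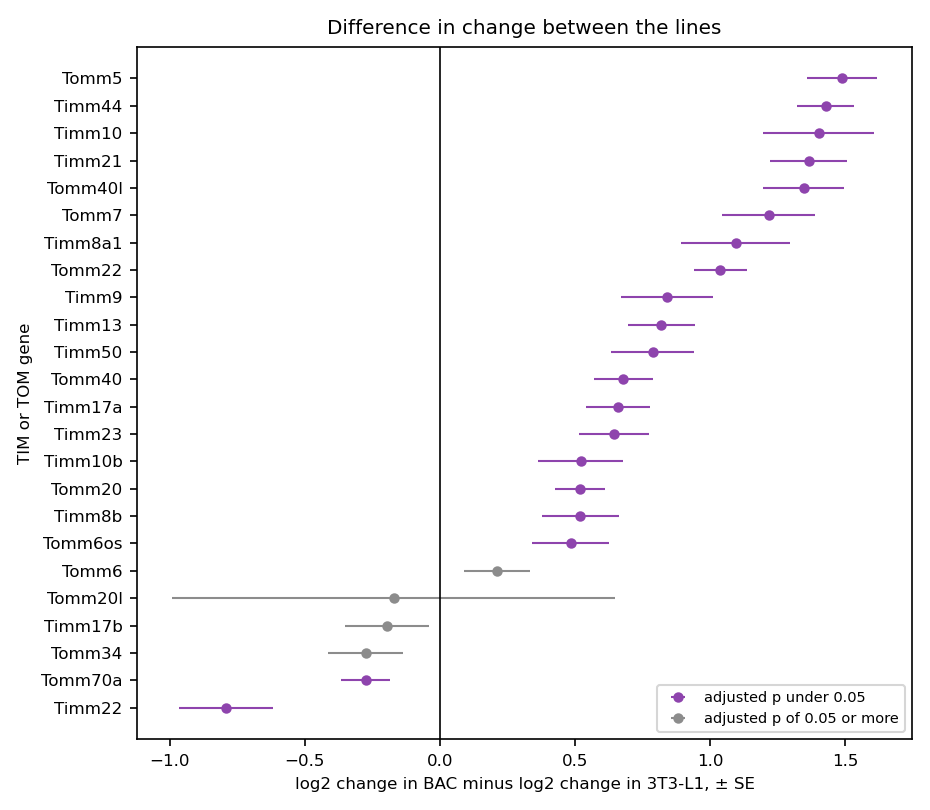
Log2 change of BAC less that of 3T3-L1, each the later day against day 0, ± SE from the edgeR fit of all 8 libraries, for the 24 TIM and TOM genes tested, sorted by value. Purple points have an adjusted p under 0.05 and grey points do not. The called values run from −0.79 for Timm22 to 1.49 for Tomm5.

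Ratios of counts within a library do not depend on the scaling between libraries, and they show how the balance between related subunits moved. They were not tested, and they also depend on transcript length, so only their movement between days is read. The ratio of Timm17a to Timm17b counts was 3.24 and 3.71 in BAC at day 4, against 0.711 and 0.745 in BAC at day 0. In 3T3-L1 it was 2.83 and 3.69 at day 6, against 1.29 and 1.15 at day 0. The ratio was higher at the later day in both lines, with no overlap between days.

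The ratio of Tomm40 to its paralog Tomm40l was 2.21 and 2.36 in BAC at day 4, against 1.96 and 1.86 in BAC at day 0. In 3T3-L1 it was 4.40 and 4.83 at day 6, against 2.36 and 2.51 at day 0, so this ratio moved more in 3T3-L1. Exons of Tomm40l are shared with Nr1i3 (69.7% of bases) and those of Tomm40 with Gm20512 (15.4%). Reads of those neighbours may enter the ratio. The ratio of the receptors Tomm20 and Tomm70a was 0.950 and 0.914 in BAC at day 4, against 0.946 and 0.978 in BAC at day 0. It was 0.851 and 0.739 in 3T3-L1 at day 6, against 1.42 and 1.42 in 3T3-L1 at day 0. The presequence receptor therefore lost ground to the carrier receptor in 3T3-L1, and in BAC the libraries of both days overlapped. The ratio of the ring partners Timm9 and Timm10 was 1.19 and 1.20 in BAC at day 4, against 1.89 and 1.85 in BAC at day 0. In 3T3-L1 it was 1.06 and 1.01 at day 6, against 0.962 and 1.27 at day 0. The ratio of Timm8a1 to Timm8b was 0.875 and 0.765 in BAC at day 4, against 0.355 and 0.396 in BAC at day 0. In 3T3-L1 it was 0.717 and 0.501 at day 6, against 0.358 and 0.462 at day 0. The ratio of Timm8a1 to its ring partner Timm13 was 0.508 and 0.443 in BAC at day 4, against 0.226 and 0.276 in BAC at day 0. In 3T3-L1 it was 0.621 and 0.543 at day 6, against 0.327 and 0.417 at day 0.

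**Figure D4:**
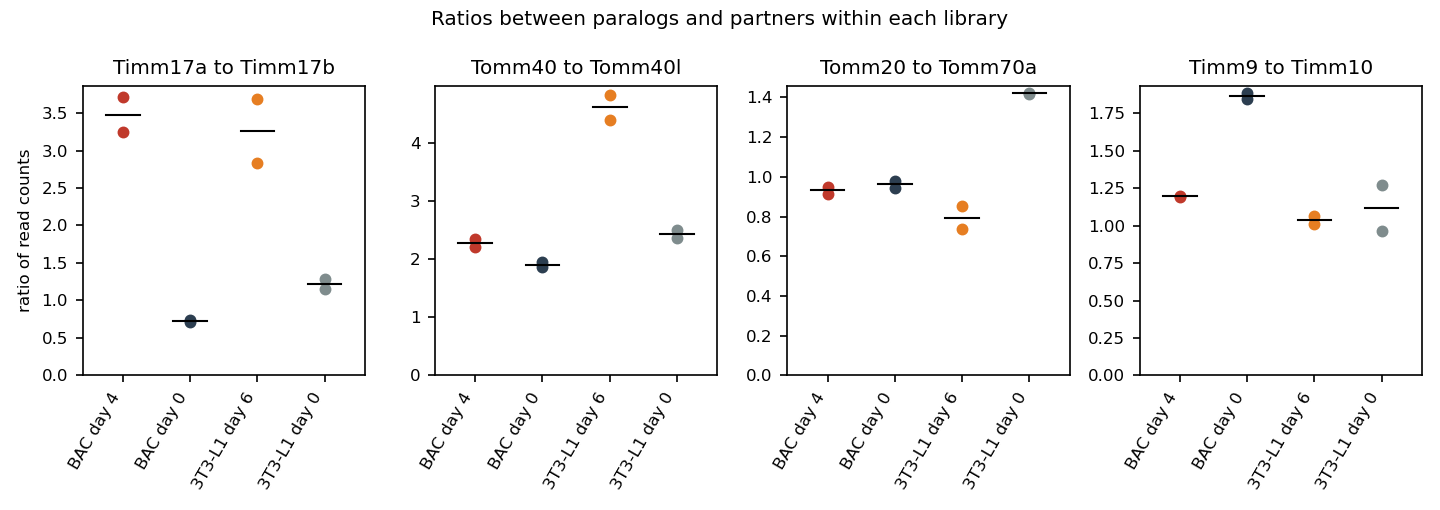
Ratio of read counts within each library for the paralogs Timm17a and Timm17b, the paralogs Tomm40 and Tomm40l, the receptors Tomm20 and Tomm70a, and the ring partners Timm9 and Timm10. Points are the 2 libraries of a group and bars their mean, on linear axes from 0 with BAC day 4, BAC day 0, 3T3-L1 day 6 and 3T3-L1 day 0 from left to right. The Timm17a ratio lies above 2.8 at the later day of both lines and below 1.3 at day 0, while the Tomm20 ratio separates by day in 3T3-L1 only.

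Levels were compared between genes only per kilobase of the principal GENCODE transcript. Tomm6, whose exons are mostly shared, was highest in BAC at day 4 with a mean of 278 CPM per kb, followed by Tomm5 with 152, Tomm22 with 147, Timm8b with 145 and Timm44 with 132 CPM per kb. In BAC at day 0 the order was Tomm6 with 115, Tomm22 with 50.7, Timm8b with 48.5 and Tomm5 with 43.2 CPM per kb. In 3T3-L1 at day 6 it was Tomm6 with 85.9, Timm8b with 81.6, Timm44 with 81.1 and Tomm40 with 69.4 CPM per kb, and in 3T3-L1 at day 0 Timm44 with 44.5, Tomm6 with 42.0, Timm8b with 40.0 and Tomm5 with 39.4 CPM per kb. At the low end, Timm8a2 and Tomm20l stayed at or below 2.70 CPM per kb in every group. Timm22 was next lowest in BAC at day 4 with 10.2 CPM per kb, so the TIM22 channel was among the scarcest TIM and TOM transcripts there. The other import genes were not ranked in this way. The length used moves this order. Per kb of all annotated exons together, Tomm5 in BAC at day 4 had 112 CPM per kb and ranked 7, and Tomm6 in 3T3-L1 at day 6 had 80.1 CPM per kb and ranked 3, behind Timm8b and Timm44.

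The wider import pathway moved in the same direction. Of 28 other import genes, 26 rose in BAC at day 4, none fell, and Dnlz and Mtch1 did not pass the test, with a median log2 change of 1.36, where 39.1% of all genes were called higher. None fell in edgeR at an unadjusted p under 0.05 either. The largest rises were those of Dnajc15, a co-chaperone of the motor (3.51 ± 0.12), Immp2l, an inner membrane peptidase (3.09 ± 0.22), and Hspa9, the matrix Hsp70 that drives the motor docked by Timm44 (3.04 ± 0.08). In 3T3-L1 at day 6, 22 of the 28 rose and 3 fell, with a median of 1.20, where 39.8% of all genes were called higher and 39.6% lower. Dnajc15 (2.85 ± 0.12), Immp2l (2.72 ± 0.27) and Grpel1, the nucleotide exchange factor of Hspa9 (2.41 ± 0.06), rose most. The falls were those of outer membrane proteins, the insertase Mtch1 (−0.77 ± 0.06) and the metaxins Mtx3 (−0.29 ± 0.08) and Mtx1 (−0.22 ± 0.10, adjusted p = 0.0494). These genes were not run under other scalings.

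The difference between the lines was positive for 16 of the 28 and negative for 3, with a median of 0.38, where 25.3% of all genes were positive and 33.7% negative. Hspa9 (1.42 ± 0.09), the inner membrane insertase Oxa1l (1.37 ± 0.10) and the matrix co-chaperonin Hspe1 (1.33 ± 0.11) had the largest positive values. The negative ones were both subunits of the presequence peptidase, Pmpcb (−0.85 ± 0.09) and Pmpca (−0.62 ± 0.10), and the aminopeptidase Xpnpep3 (−0.61 ± 0.15). Of the other precursor peptidases, Mipep had a positive difference (0.42 ± 0.18, adjusted p = 0.0487), and Immp1l and Immp2l had none past the test (0.01 ± 0.15 and 0.34 ± 0.42). Hspa9 and its anchor Timm44 had close differences.

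The TIM and TOM genes were set beside other nuclear genes for mitochondrial proteins. In BAC the median log2 change was 1.78 for the 23 TIM and TOM genes, 1.47 for 77 mitochondrial ribosomal proteins, of which 75 rose, and 2.56 for 83 respiratory chain and ATP synthase subunits, of which all 83 rose. In 3T3-L1 the median was 0.98 for 24 TIM and TOM genes, with Tomm20l, not tested in BAC, among them. The mitochondrial ribosomal proteins were close to that, at 1.00 (72 of 77 rose and 3 fell). The respiratory chain and ATP synthase subunits tested had a median of 1.59 (76 of 80 rose and 1 fell). In the same order, the medians of the difference were 0.67, 0.45 (46 of 77 positive and 3 negative) and 1.06 (73 of 83 positive and 2 negative). These sets were described side by side, and no test compared them.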

How the data were processed

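For each line the authors deposited raw counts per gene symbol in 4 columns, neither normalised nor pooled. Accounts of the counting differ, with STAR, HTSeq and DESeq2 in the study's methods and Bowtie2, RSEM 1.3.1, DESeq2 1.4.5 and build mm10 in the submitters' processing notes. No source used here states the strand setting. For BAC, 27 symbols had become dates, which held up to 0.316% of a library, and were left out. Libraries held 9045849 to 10160636 counts, and PCR duplicates could not be separated from independent molecules.

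The main test was edgeR 4.0.16 (glmQLFit and glmQLFTest, two-sided, R 4.3.3) with TMM factors, filterByExpr (minimum count 10) and Benjamini-Hochberg adjustment over all genes tested at 0.05, with a separate fit of 4 libraries for each line. The difference between the lines' changes was fitted over all 8 libraries on the 21828 shared symbols, so its values differ slightly from the difference of the separate fits. The SE was derived from the log2 change and the F statistic. Alternatives were DESeq2 1.42.0, RLE and upper-quartile factors, library size alone, no low-count filter, only shared symbols, a replicate block, each library left out in turn and, added after seeing the data, leaving out transcripts of mitochondrial DNA. The procedure was also run on simulated counts in which few genes changed, evenly up and down. That run cannot test the scaling between libraries, and its outcome is not given here. Gene positions and exon overlaps came from GENCODE M21 (GRCm38) and promoter windows from RefSeq (GRCm38.p6), both matched by symbol.

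All TIM and TOM genes chosen by symbol are accounted for. Of the other import genes the text names the 3 largest rises and up to 3 falls past the test in each comparison. The genes and lists were chosen with earlier results of these data known.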

Additional observations from a re-analysis of the deposited data

Results flagged for a closer look

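Of 24 TIM and TOM genes tested, 20 changed differently with differentiation in BAC and 3T3-L1 (edgeR test of the difference, adjusted p under 0.05). Of all 12863 genes tested, 25.3% were called positive and 33.7% negative by the same test. Positive values, the log2 change of BAC day 4 against day 0 minus that of 3T3-L1 day 6 against day 0, were 1.4 for Timm10, 0.52 for Timm10b, 0.82 for Timm13, 0.66 for Timm17a, 1.36 for Timm21, 0.64 for Timm23, 1.43 for Timm44, 0.79 for Timm50, 1.09 for Timm8a1, 0.52 for Timm8b and 0.84 for Timm9. In the TOM genes they were 0.52 for Tomm20, 1.04 for Tomm22, 0.68 for Tomm40, 1.35 for Tomm40l, 1.49 for Tomm5, 0.48 for Tomm6os and 1.22 for Tomm7. Negative values were −0.79 for Timm22 and −0.28 for Tomm70a. Line and day of sampling cannot be told apart in these values.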

How the results depend on the processing

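Direction and call were kept under every alternative run by 21 of 23 TIM and TOM genes in BAC, 18 of 24 in 3T3-L1 and 18 of 24 in the difference between the lines. The number called lower in 3T3-L1, 0 with TMM factors, was 1 with upper-quartile factors and 1 with library size alone, and 0 to 1 with a library left out. The number with a negative difference, 2 with TMM factors, was 1 with DESeq2, 1 with upper-quartile factors, and 1 to 3 with a library left out. With library size alone the sign turned for Timm17b in BAC (−0.178) and, in 3T3-L1, for Timm17b (−0.0342), Tomm20 (−0.0422) and Tomm7 (−0.0449). With a library left out, Timm17b in BAC ranged from −0.0364 to 0.203, Tomm34 in 3T3-L1 from −0.27 to 0.0116, and in the difference Timm17b from −0.346 to 0.0423 and Tomm20l from −0.945 to 0.328. Causes were not tested. The median of all genes in the difference moved by 0.116 with upper-quartile factors, 0.143 without BAC day 0 replicate 1 and 0.146 without BAC day 0 replicate 2. The share of positive calls there was 52.5% and 52.4% without either of those libraries, against 42.9% with all of them.

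No source says whether the replicate numbers of BAC mark a shared culture. The deviations of the BAC libraries numbered 1 from their group means had a correlation of 0.01 between days over 14028 genes. That value cannot show whether libraries of the same number came from a shared culture. With a replicate block, 5528 genes were called higher and 5571 lower in BAC, and no TIM or TOM call changed. No paired analysis was possible in 3T3-L1 because its groups share only 1 replicate number. Timm8a2 in both lines and Tomm20l in BAC had too few counts for a statement.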
